A study of Homo sapiens with 18 samples.

Results

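The proteasome is the large protease that degrades ubiquitin-tagged proteins, and 48 genes of its subunits, activators and assembly factors are described here. They were taken by symbol from a table of 58870 genes, without use of their values: 7 subunits of the alpha ring, 7 of the constitutive beta ring, 3 inducible catalytic subunits, 6 ATPases, 12 other subunits of the regulatory particle, 4 activators with 1 inhibitor, and 8 assembly factors. All 48 had enough counts to be tested, as had 15787 genes of the whole table.

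RNA was sequenced from NCI-H295R, an established human adrenocortical carcinoma line. There were 6 groups of 3 biological replicates: cells given no inhibitor, and cells kept for 48 h at a stated 20 nM with STA9090 (ganetespib, which inhibits the chaperone HSP90), with PIK75 (an inhibitor of the lipid kinase PI3K), with BGT226 (an inhibitor of PI3K and mTOR), with STA9090+PIK75 or with STA9090+BGT226. How much of each agent a combination held, and what vehicle the untreated cells received, is not given in the sources used here. All groups are 1 cell line, and nothing says whether the replicates were separate cultures, so p-values measure the spread between these libraries.

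The core particle stacks alpha rings outside beta rings, and the beta subunits PSMB5, PSMB6 and PSMB7 carry the protease sites. In cells that respond to interferon, PSMB8, PSMB9 and PSMB10 can take their places. The regulatory particle recognises ubiquitin, removes it and unfolds the substrate with a ring of ATPases. In many cell types the transcription factor NFE2L1 raises subunit genes together when proteasome activity falls, through antioxidant response elements in their promoters, and mTOR signalling has been linked to proteasome gene expression.

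Promoters are shown because most members fell in cells given BGT226; whether promoter sequence has a part in this was not tested. Of the 48 members, 42 matched a RefSeq promoter window of 250 bases before and 50 after the gene start (GRCh38.p14); the others are PSMA7, PSMB1, PSMB6, PSMB7, PSMD4 and PSMG3. The 250 bases before the start are printed for PSMB3 (chr17:38752491-38752740, plus strand), PSMD14 (chr2:161308175-161308424, plus strand) and PSME2 (chr14:24146611-24146860, minus strand), whose levels differed widely between the PI3K inhibitors, and for PSMG4 (chr6:3258697-3258946, plus strand), the 1 member that rose with STA9090+BGT226. The starts are those of RefSeq and can differ from the gene bounds of GENCODE 29. The bases printed for PSMD14, PSME2 and PSMG4 lie within those bounds. There PSMD14 begins at chr2:161308038, PSMG4 at chr6:3231403 and PSME2, on the minus strand, at chr14:24147570. Capitals mark matches on either strand to TGACNNNGC, TGAGNNNGC (letters of the antioxidant response element core) or CCAAT (the CCAAT box). CCAATTGG holds overlapping CCAAT matches on opposite strands.
PSMB3: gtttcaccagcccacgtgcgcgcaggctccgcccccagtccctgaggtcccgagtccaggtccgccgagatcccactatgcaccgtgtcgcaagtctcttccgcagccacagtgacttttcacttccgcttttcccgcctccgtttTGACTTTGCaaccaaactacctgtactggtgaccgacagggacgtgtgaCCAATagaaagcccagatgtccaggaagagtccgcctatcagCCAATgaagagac
PSMD14: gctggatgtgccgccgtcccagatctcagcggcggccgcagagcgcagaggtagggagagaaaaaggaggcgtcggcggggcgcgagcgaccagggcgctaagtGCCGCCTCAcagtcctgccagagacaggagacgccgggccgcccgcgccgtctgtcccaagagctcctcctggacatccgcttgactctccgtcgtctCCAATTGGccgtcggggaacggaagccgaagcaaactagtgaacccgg
PSME2: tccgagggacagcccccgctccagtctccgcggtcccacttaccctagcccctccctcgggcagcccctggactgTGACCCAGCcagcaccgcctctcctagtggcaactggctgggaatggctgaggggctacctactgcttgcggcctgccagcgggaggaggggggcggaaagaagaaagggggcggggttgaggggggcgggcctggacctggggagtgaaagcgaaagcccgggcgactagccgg
PSMG4: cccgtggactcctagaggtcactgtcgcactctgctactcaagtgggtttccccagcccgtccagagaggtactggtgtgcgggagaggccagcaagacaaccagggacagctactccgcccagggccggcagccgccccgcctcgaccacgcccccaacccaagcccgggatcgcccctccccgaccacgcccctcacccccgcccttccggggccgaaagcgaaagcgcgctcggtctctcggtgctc

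TGACNNNGC or TGAGNNNGC, searched on both strands, was present in 21 of the 42 promoter windows (50%), against 29.1% of 35116 windows of all genes and 32.3% of the 10154 windows of tested protein-coding genes. CCAAT was present in 19 of 42 (45.2%), against 34.6% and 37.1%. GTAAACA, letters bound by forkhead factors, was present in 2 of 42 (4.76%), against 3.42% and 2.25%. A match describes the letters and is not a binding site. Under BGT226 the median log2 fold change was -0.57 for members with either of the first motifs and -0.54 for members without.

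Library totals ran from 10.2 to 21.1 M counts, and the lowest count of any named member in a library was 23 (PSMB10 in a BGT226 library). Values are CPM, counts relative to the library total after TMM scaling, with the SD of 3 libraries, and fold changes are log2 values fitted by edgeR with a standard error (SE). Library 1 of STA9090 stood apart from its group on the third principal component of all genes, at 32.3 against 14.5 and 10.6. The 6 adrenocortical markers were all past the filter, and their summed level was 1490 to 1760 CPM in untreated cells, 1480 to 1870 with STA9090, 986 to 1110 with PIK75, 1130 to 1190 with BGT226, 753 to 785 with STA9090+PIK75 and 1250 to 1320 with STA9090+BGT226. Single markers did not all follow the sum. With BGT226, 2 of the 6 were called higher and 3 lower, against 12.8% and 15.7% of all tested genes. With STA9090+BGT226, 2 were higher and 3 lower, against 19.4% and 20.4%. Log2 fold changes there ran from -0.82 for CYP17A1 to 1.06 for HSD3B2. Markers of other cell types were low, and CD3E was at 0 in every group. Past the filter were 2 of 6 leukocyte, 1 of 5 fibroblast and 0 of 4 endothelial markers. In whole cultures, fewer cells of a kind and less RNA per cell cannot be told apart.

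The order of members was given per length, as CPM per kb of exon in GENCODE 29. The length counts every annotated exon base of a gene and need not match the transcripts present. In untreated cells the highest levels were those of the beta subunits PSMB4, at 149 ± 18.2 CPM per kb, and PSMB7, at 133 ± 13.8. The lowest were the inducible subunit PSMB10, at 2.14 ± 0.419, and the assembly factor PSMG4, at 2.49 ± 0.218 CPM per kb (SD, n = 3). The place of PSMG4 depends on its annotated exon length of 5816 bases. Before division by length its untreated mean was 14.5 CPM, above PSMB9 (7.07), PSMG1 (9.6), PSMG3 (11.2) and PSMD10 (12.2). The ranges of mean ± SD overlapped for PSMB4 and PSMB7, and for PSMB10 and PSMG4. Within each library, however, PSMB4 was above PSMB7 (134, 165 and 135 CPM against 126, 145 and 119 CPM). Differences between genes were not tested. The inducible subunits were below the constitutive subunits they replace: PSMB8 was at 13.2 and PSMB9 at 7.68 CPM per kb.

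**Figure D1:**
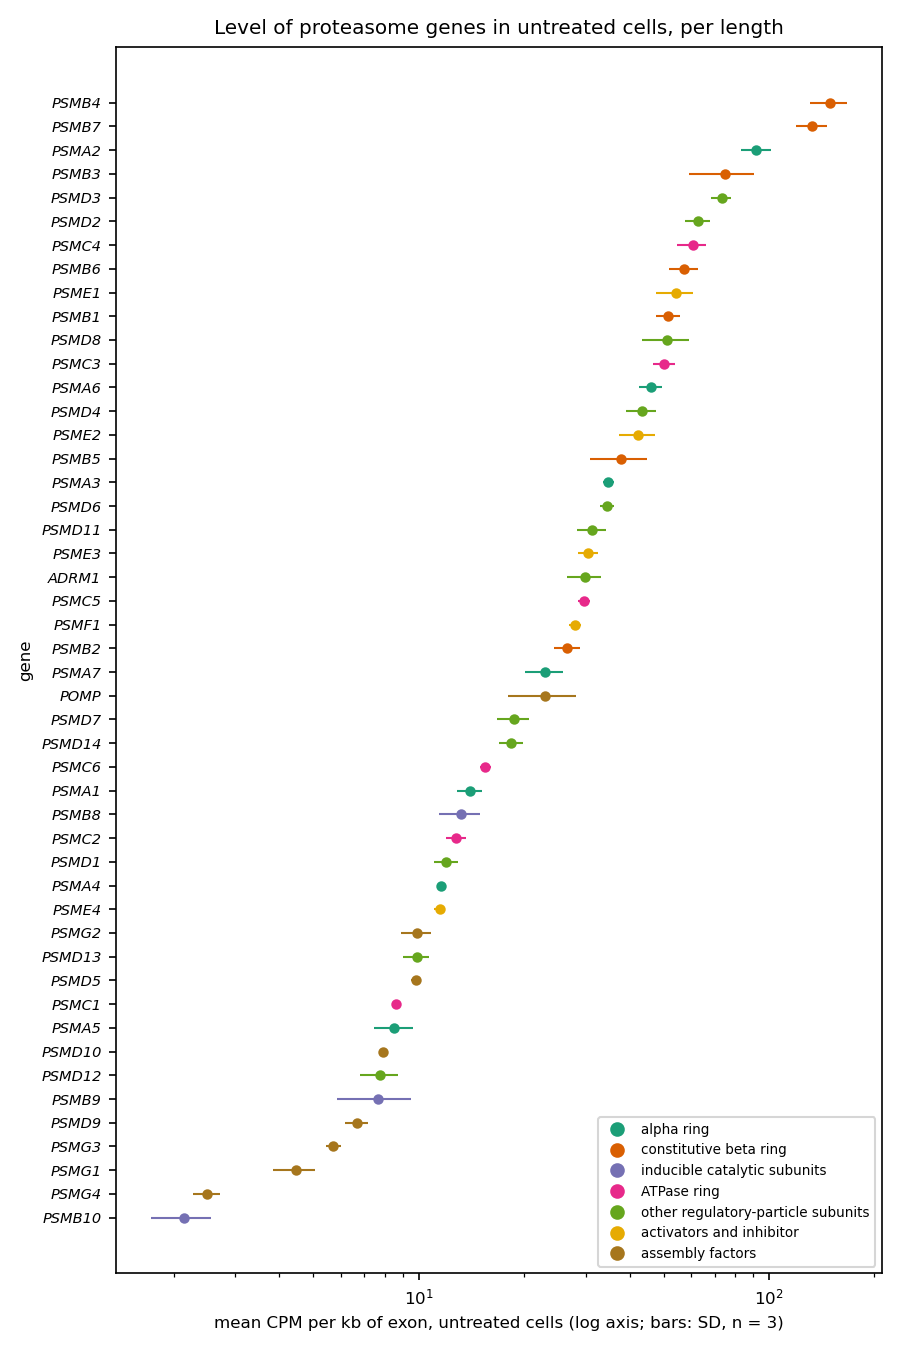
Mean level of each of the 48 genes in untreated cells as CPM per kb of exon (horizontal log axis; points: mean, bars: SD, n = 3), coloured by role. PSMB4 and PSMB7 lie at the top and PSMB10 and PSMG4 at the bottom. The order depends on the annotated exon length, which need not match the transcripts present.

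The summed level of the 48 genes was 2923, 3250 and 2829 CPM in the untreated libraries and 1971, 2032 and 1987 CPM in the BGT226 libraries. With STA9090+BGT226 it was 1935, 1908 and 1972 CPM. With PIK75 it was 2525, 2604 and 2481 CPM, with STA9090+PIK75 2872, 2827 and 2846 CPM, and with STA9090 2994, 3163 and 3247 CPM. The 6 libraries with BGT226 were thus the lowest, the PIK75 libraries came next, and STA9090 and STA9090+PIK75 overlapped the untreated range. In 41 of 48 genes the means of both BGT226 groups lay below the means of the other 4 groups; the exceptions were PSMB10, PSMC6, PSMD4, PSMD12, PSME1, PSMG2 and PSMG4.

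**Figure D2:**
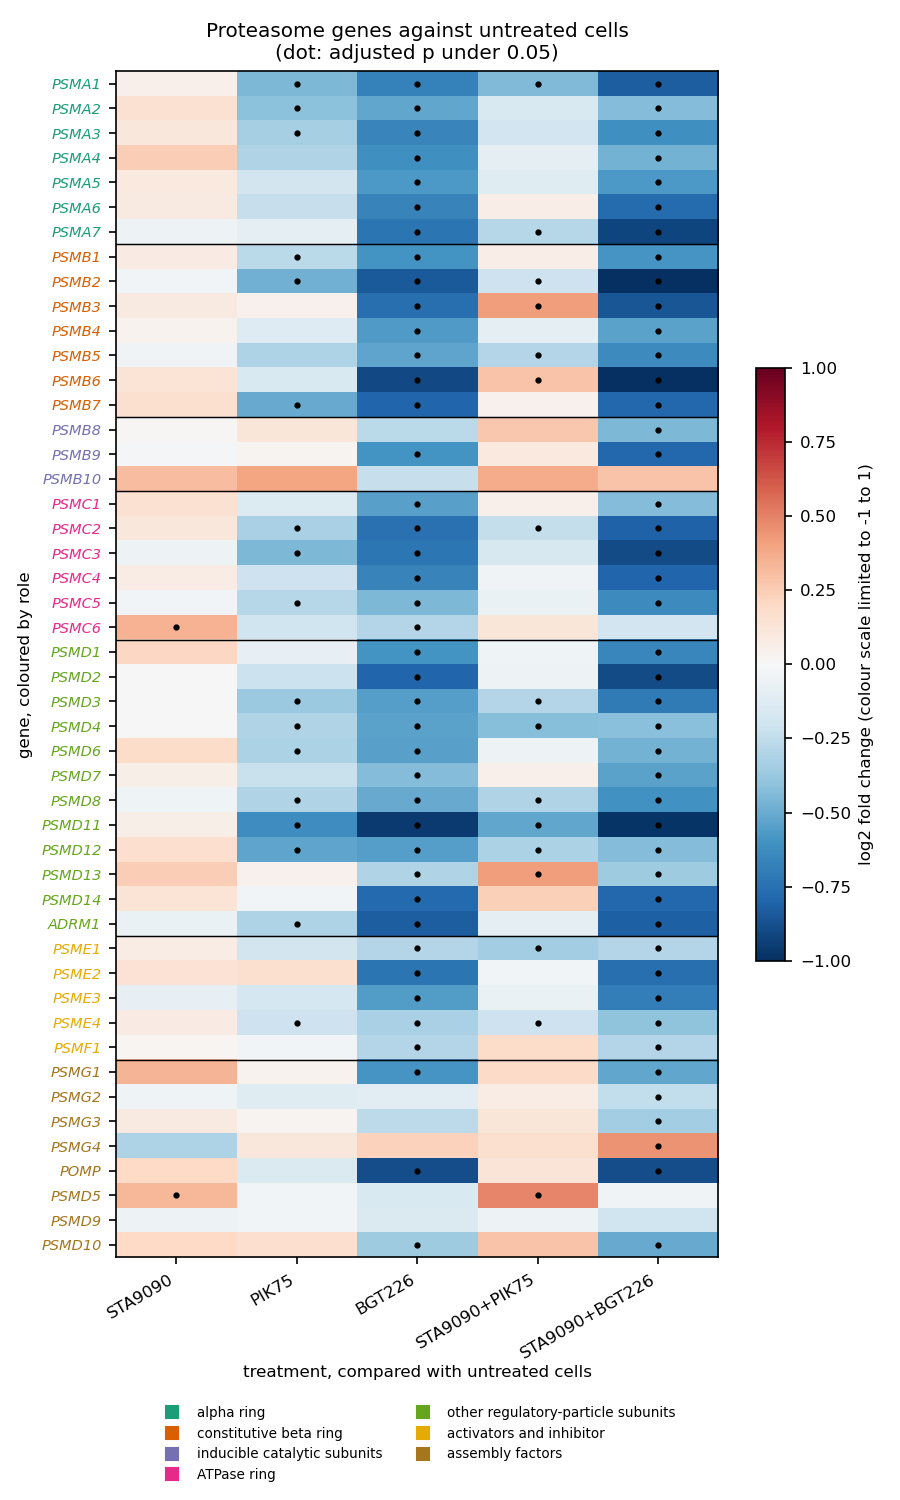
Log2 fold change of the 48 genes (rows, ordered and coloured by role) in each treatment against untreated cells (columns); blue is lower, red is higher, the colour scale ends at -1 and 1, and a dot marks an edgeR adjusted p under 0.05. The BGT226 and STA9090+BGT226 columns are blue in nearly every gene, with PSMG4 above 0 in both and PSMB10 above 0 in the second, whereas the STA9090+PIK75 column holds both colours.

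BGT226 against untreated cells asks how cells given this agent alone differed. The activity of PI3K and mTOR is not part of these data. Of the 48 proteasome genes 41 fell and 0 rose in edgeR's quasi-likelihood test, while 15.7% of all tested genes fell. At an unadjusted p under 0.05, 42 were lower and 1 (PSMG4) was higher, and DESeq2 called 40 lower and 0 higher. In 43 of 48 genes the libraries of the groups did not overlap, against 44.9% of all tested genes. The median log2 fold change was -0.56, against 0.01 over all tested genes. Every subunit of the alpha ring (7 of 7), the constitutive beta ring (7 of 7), the ATPase ring (6 of 6) and the rest of the regulatory particle (12 of 12) fell, as did all 5 genes of activators and inhibitor. Only 1 of 3 inducible subunits and 3 of 8 assembly factors fell.

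In the alpha ring, whose subunits gate the entry to the core, log2 fold changes with BGT226 ran from -0.73 for PSMA7 to -0.52 for PSMA2. PSMA1 was at 32.3, 33.3 and 28.4 CPM in untreated cells and at 20.2, 18.5 and 20.1 CPM with BGT226, without overlap. Its log2 fold change was -0.68 ± 0.101 (SE, edgeR adjusted p = 4.59e-05), 62.4% of the untreated level. PSMA7 was at 32.6, 41.1 and 34.3 CPM in untreated cells and at 21.9, 24.5 and 19.3 CPM with BGT226, again without overlap (-0.73 ± 0.101, edgeR adjusted p = 2.02e-05).

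In the constitutive beta ring, log2 fold changes with BGT226 ran from -0.90 for PSMB6, the caspase-like catalytic subunit, to -0.53 for PSMB5, the chymotrypsin-like catalytic subunit. PSMB6 was at 50.1, 54.6 and 45.2 CPM in untreated cells and at 27.1, 29 and 24.6 CPM with BGT226. The libraries did not overlap, and PSMB6 was at 53.5% of its untreated level (log2 fold change -0.90 ± 0.107, edgeR adjusted p = 3.4e-06). PSMB2, a beta subunit without protease activity, was at 127, 141 and 119 CPM in untreated cells and at 69.5, 73.4 and 73.4 CPM with BGT226. Its log2 fold change of -0.84 ± 0.0697 had the smallest adjusted p of the 48 genes in this comparison (edgeR, 3.72e-08). PSMB3, a neighbouring non-catalytic subunit, was at 50.8, 71.8 and 50.9 CPM in untreated cells and at 31.8, 35.4 and 35.8 CPM with BGT226 (-0.75 ± 0.116, edgeR adjusted p = 6.99e-05).

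Among the ATPases, which unfold substrates and thread them into the core, PSMC2 and PSMC3 fell most. PSMC2 was at 42.1, 38.4 and 37.0 CPM in untreated cells and at 24.4, 24.1 and 21.7 CPM with BGT226 (log2 fold change -0.75 ± 0.0942, edgeR adjusted p = 7.19e-06). PSMC3 was at 80.1, 85.1 and 73.3 CPM in untreated cells and at 48.9, 48.2 and 47.6 CPM with BGT226 (-0.72 ± 0.0735, edgeR adjusted p = 5.28e-07). Neither gene overlapped between the groups. PSMC6 fell least of the ring, by 0.29 on the log2 scale (SE 0.0817, edgeR adjusted p = 0.0105), and without BGT226 library 1 it was not called (adjusted p = 0.0539).

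In the rest of the regulatory particle, PSMD11, a lid subunit that clamps the particle to the core, had the lowest log2 fold change of all 48 genes. It lies at chr17:32444261-32483318 (hg38, GENCODE 29 gene bounds). PSMD11 was at 126, 146 and 124 CPM in untreated cells and at 71.7, 65.3 and 67.7 CPM with BGT226. The groups were far apart, and the log2 fold change was -0.95 ± 0.0845 (edgeR adjusted p = 8.62e-08), 51.6% of the untreated level. ADRM1, a ubiquitin receptor, was at 40.6, 50.6 and 45.6 CPM in untreated cells and at 25.4, 27.7 and 24.3 CPM with BGT226 (-0.83 ± 0.0998, edgeR adjusted p = 4.56e-06). PSMD13, a lid subunit, was at the other end of the range: 20.1, 22.9 and 19.7 CPM in untreated cells against 15.7, 17.3 and 17.7 CPM with BGT226 (-0.30 ± 0.0844, edgeR adjusted p = 0.0103). This call was lost without untreated library 2 (adjusted p = 0.0733) or BGT226 library 1 (adjusted p = 0.0528).

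Of the activators, PSME2, which with PSME1 forms an interferon-inducible cap on the core, was at 61.1, 71.0 and 56.5 CPM in untreated cells and at 38.6, 37.1 and 38.2 CPM with BGT226 (log2 fold change -0.73 ± 0.0893, edgeR adjusted p = 5.2e-06). Its partner PSME1 fell by 0.29 (SE 0.0827, edgeR adjusted p = 0.012), a call lost without untreated library 2 (-0.18, adjusted p = 0.0977) or BGT226 library 3 (adjusted p = 0.0507). PSME3, the subunit of a nuclear cap, was at 137, 146 and 129 CPM in untreated cells and at 95.9, 92.9 and 91.4 CPM with BGT226 (-0.56 ± 0.0632, edgeR adjusted p = 2.05e-06). None of the 3 genes overlapped between these groups.

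Among the inducible subunits, PSMB9 was at 5.60, 8.93 and 6.68 CPM in untreated cells and at 4.24, 4.78 and 4.92 CPM with BGT226 (log2 fold change -0.60 ± 0.192, edgeR adjusted p = 0.0238). The groups did not overlap, but the call was lost without untreated library 2 (-0.39, adjusted p = 0.183) and without any 1 of the BGT226 libraries (adjusted p 0.0739, 0.0518 and 0.0523). PSMB10 was at 2.19, 3.18 and 2.45 CPM in untreated cells and at 2.66, 1.83 and 2.27 CPM with BGT226, which overlap (-0.23, 95% interval -0.67 to 0.21, edgeR adjusted p = 0.483). PSMB8 was at 18.2, 23.6 and 19.9 CPM against 13.6, 18.8 and 18.3 CPM and was not called (-0.27 ± 0.113, edgeR adjusted p = 0.0823).

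Of the 8 assembly factors, POMP, PSMG1 and PSMD10 fell with BGT226. POMP, which matures the core and is degraded by it, was at 33.4, 39.8 and 25.4 CPM in untreated cells and at 17.2, 18.0 and 18.1 CPM with BGT226 (log2 fold change -0.89 ± 0.118, edgeR adjusted p = 1.36e-05). PSMG1, one of a chaperone pair for the alpha ring, was at 11.1, 8.72 and 8.96 CPM in untreated cells and at 6.70, 6.54 and 6.03 CPM with BGT226 (-0.59, 95% interval -0.84 to -0.34, edgeR adjusted p = 0.00134). PSMG4, of a second such pair, was at 16.0, 14.1 and 13.5 CPM in untreated cells and at 15.8, 16.2 and 18.9 CPM with BGT226, which overlap. Its log2 fold change was 0.23 (95% interval 0.02 to 0.45, edgeR adjusted p = 0.12), the only value above 0 of the 48. PSMD10, a chaperone of the ATPase ring, fell by 0.35 (SE 0.118, edgeR adjusted p = 0.0288), but DESeq2 did not call it (adjusted p = 0.0532), nor did edgeR without untreated library 1, 2 or 3 (0.058, 0.0519 and 0.0712) or BGT226 library 1 or 2 (0.109 and 0.0717).

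**Figure D3:**
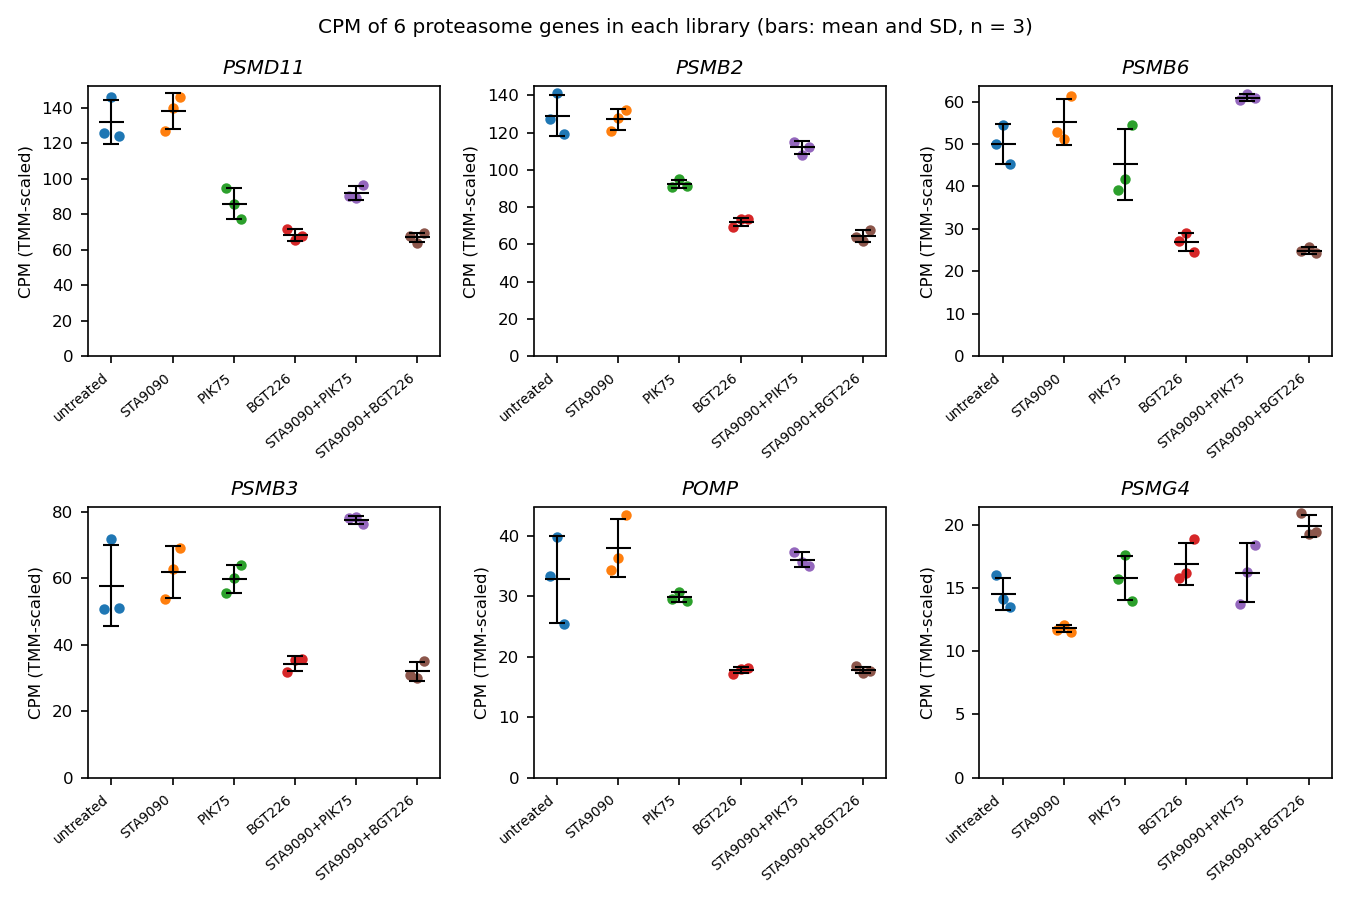
CPM of 6 genes in each library (vertical axes from 0; points: libraries, bars: mean and SD, n = 3, by group). PSMD11, PSMB2, PSMB6, PSMB3 and POMP are lowest in both groups with BGT226, PSMB3 and PSMB6 are highest with STA9090+PIK75, and PSMG4 is highest with STA9090+BGT226.

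PIK75 against untreated cells asks the same of the other PI3K inhibitor. Of the 48 genes 17 fell and 0 rose, while 10.2% of all tested genes fell and 8.49% rose; at an unadjusted p under 0.05, 26 were lower and 0 higher, and DESeq2 called 20 lower and 0 higher. In 23 of 48 genes the groups did not overlap, against 32.2% of all tested genes. The median log2 fold change was -0.19, against 0 over all tested genes. The genes that fell were 3 of 7 in the alpha ring, 3 of 7 in the constitutive beta ring, 3 of 6 ATPases, 7 of 12 other regulatory subunits and 1 of 5 activators and inhibitor. Of the 3 inducible subunits and 8 assembly factors 0 were called, 0 had an unadjusted p under 0.05 and DESeq2 called 0. In a fit of these 2 groups alone, 10 of the 48 were called lower.

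PSMD11 again had the lowest value, at 95, 86.0 and 77.2 CPM with PIK75, below all untreated libraries (log2 fold change -0.62 ± 0.0838, edgeR adjusted p = 3.07e-05). PSMB2 was at 91.0, 95.2 and 91.1 CPM with PIK75 (-0.48 ± 0.0691, edgeR adjusted p = 5.63e-05) and PSMB7, the trypsin-like catalytic subunit, at 93.2, 94.5 and 88.4 CPM against 126, 145 and 119 CPM in untreated cells (-0.50 ± 0.0811, edgeR adjusted p = 0.000187). Both were apart from the untreated libraries. PSMA1 was at 25.2, 24.4 and 19.3 CPM (-0.45 ± 0.1, edgeR adjusted p = 0.0035) and PSMC3 at 57.7, 54.3 and 62.6 CPM with PIK75 (-0.45 ± 0.073, edgeR adjusted p = 0.000185). PSMC2 (-0.32) and ADRM1 (-0.31) were also called, but not in the fit of the compared groups (edgeR adjusted p 0.0588 and 0.0583), and PSMC2 not without untreated library 1 or PIK75 library 3 (0.0785 and 0.0979), ADRM1 not without untreated library 2 or 3 or PIK75 library 1 or 2 (0.138, 0.0649, 0.0947 and 0.098). PSME2, at 64.9, 70.5 and 75.5 CPM, and PSMB3, at 55.4, 60.0 and 63.9 CPM with PIK75, overlapped the untreated libraries and were not called.

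STA9090 against untreated cells moved few of these genes. PSMC6 and PSMD5 rose, 2 of 48, and 0 fell, while 1.16% of all tested genes rose, 1.68% fell and 2.84% were called in all; at an unadjusted p under 0.05, 8 were higher and 1 (PSMG4) lower, and DESeq2 called 2 higher and 0 lower. In 9 of 48 genes the groups did not overlap, against 19.8% of all tested genes. Their median log2 fold change was 0.08, against 0 over all tested genes. PSMC6 was at 34.5, 32.5 and 34.7 CPM in untreated cells and at 43.7, 44.9 and 40.8 CPM with STA9090 (0.35 ± 0.0796, edgeR adjusted p = 0.0244). PSMD5, a chaperone that assembles the ATPase ring, was at 33.2, 33.1 and 34.9 CPM in untreated cells and at 44.5, 41.5 and 41.0 CPM with STA9090 (0.33 ± 0.0755, edgeR adjusted p = 0.0248). Neither gene overlapped between the groups.

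Neither rise was called in a fit of the 2 groups alone (edgeR adjusted p 0.147 for PSMC6 and 0.159 for PSMD5). The count of genes called was 0 without any 1 of the untreated libraries or without STA9090 library 1, and 1 without STA9090 library 2. PSMG4 was at 11.7, 12.1 and 11.5 CPM with STA9090, below all untreated libraries, and was not called (log2 fold change -0.31 ± 0.115, edgeR adjusted p = 0.152). PSMG1, at 11.2, 13.9 and 11.5 CPM, was above all untreated libraries and was not called (0.34 ± 0.117, edgeR adjusted p = 0.112). Of the 48 genes, 44 had a 95% interval of the log2 fold change within 0.5 of 0.

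With STA9090+BGT226, 43 of the 48 genes fell and 1 rose against untreated cells, while 20.4% of all tested genes fell and 19.4% rose. In 45 of 48 genes the groups did not overlap, against 50% of all tested genes. The median log2 fold change was -0.60, against 0.03 over all tested genes. All 7 alpha, all 7 constitutive beta, 5 of 6 ATPase, all 12 other regulatory and all 5 activator and inhibitor genes fell. Of the inducible subunits 2 of 3 fell, and of the assembly factors 5 of 8 fell and 1 rose. DESeq2 called 41 of the 48 lower and 1 higher, and 3 of the 8 assembly factors lower. The assembly factors PSMG2 and PSMG3 lost their calls with DESeq2 (adjusted p 0.0684 and 0.0608). They also lost them in an edgeR fit of the 2 groups alone (0.0677 and 0.0576) and in several fits with 1 library left out (up to 0.242 and 0.215).

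PSMB6 had the lowest value, at 24.8, 25.7 and 24.2 CPM with STA9090+BGT226 against 45.2 to 54.6 CPM in untreated cells (log2 fold change -1.01 ± 0.107, edgeR adjusted p = 4.62e-07), 49.7% of the untreated level. PSMB2 was at 64.2, 61.8 and 67.9 CPM (-1.0 ± 0.07, edgeR adjusted p = 2.3e-09) and PSMD11 at 67.7, 64.0 and 69.2 CPM (-0.98 ± 0.0845, edgeR adjusted p = 3.18e-08). PSMA7 was at 18.2, 19.1 and 19.7 CPM (-0.92 ± 0.102, edgeR adjusted p = 7.37e-07) and POMP at 18.4, 17.4 and 17.6 CPM (-0.89 ± 0.118, edgeR adjusted p = 6.55e-06). None of these libraries reached the untreated range.

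PSMG4 was the 1 gene that rose, at 20.9, 19.3 and 19.4 CPM with STA9090+BGT226, above all untreated libraries (log2 fold change 0.45 ± 0.108, edgeR adjusted p = 0.0026). Its annotated gene spans chr6:3231403-3303373 (hg38, GENCODE 29). The 4 genes not called were PSMB10, PSMC6, PSMD5 and PSMD9. PSMC6, at 30.7, 30.8 and 27.5 CPM, lay below all untreated libraries (-0.19 ± 0.0812, edgeR adjusted p = 0.0635), and PSMD5, at 31.4, 34.9 and 32.4 CPM, overlapped them.

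STA9090+BGT226 against BGT226 asks what STA9090 added. Of the 48 genes 0 were called by edgeR, 0 by DESeq2 and 4 (PSMB2, PSMC3 and PSMC5 lower, PSMB10 higher) had an unadjusted p under 0.05, while 2.69% of all tested genes were called, 0.988% higher and 1.7% lower. In 10 of 48 genes the groups did not overlap, against 28% of all tested genes. Log2 fold changes ran from -0.19 to 0.51, with a median of -0.05 against 0.01 over all tested genes, and 46 of 48 genes had a 95% interval within 0.5 of 0. In a fit of the 2 groups alone 1 gene was called. STA9090+BGT226 against STA9090 showed 44 of 48 genes lower and 1 higher, against 20.9% and 19.5% of all tested genes (40.4% in all), and 46 did not overlap, against 48%. PSMG1, PSMB6 and POMP were at -0.87 ± 0.121, -1.14 ± 0.107 and -1.09 ± 0.117 on the log2 scale, and PSMG4 at 0.75 ± 0.111 (edgeR adjusted p 1.07e-05, 7.55e-08, 4.3e-07 and 1.97e-05). The interaction of STA9090 with BGT226, the departure from the sum of both effects on the log2 scale, was called in 0 of 48 genes by edgeR and 0 by DESeq2, 5 had an unadjusted p under 0.05, and 0.00633% of all tested genes were called.

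With STA9090+PIK75, 12 of the 48 genes fell and 4 rose against untreated cells, while 20.1% of all tested genes fell and 18.3% rose. In 23 of 48 genes the groups did not overlap, against 48.1% of all tested genes. Over the 48 genes the median was -0.05 on the log2 scale, against 0.01 over all tested genes. The genes that rose were PSMB3 and PSMB6 of the beta ring, PSMD13 of the lid and the assembly factor PSMD5. In the same libraries the fibroblast marker list summed to 0.714 to 1.26 CPM against 8.72 to 11.9 CPM in untreated cells. COL3A1 and LUM were at 0 in these libraries. Most of the sum was COL1A1, called lower, at a mean of 9.21 CPM in untreated cells and 0.799 CPM here (log2 fold change -3.5). The leukocyte list summed to 2.23 to 2.42 CPM against 1.01 to 2.64 CPM, with PTPRC and CD3E at 0. Within it CD14 was called higher (1.16), at a mean of 0.439 CPM in untreated cells. The part of these lists in the result was not tested.

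PSMB3 was at 78.1, 78.5 and 76.3 CPM with STA9090+PIK75, above the untreated libraries, of which library 2 (71.8 CPM) came closest (log2 fold change 0.42 ± 0.112, edgeR adjusted p = 0.00553). PSMB6 was at 60.3, 61.8 and 60.8 CPM, above all untreated libraries (0.28 ± 0.102, edgeR adjusted p = 0.0323). DESeq2 did not call PSMB6 (adjusted p = 0.0502), nor did edgeR without untreated library 1 or 3 (0.074 and 0.16) or without STA9090+PIK75 library 1, 2 or 3 (0.0634, 0.0856 and 0.0664). PSMD13 was at 27.3, 27.4 and 29.1 CPM (0.42 ± 0.0815, edgeR adjusted p = 0.000427) and PSMD5 at 46.2, 46.1 and 49.4 CPM (0.49 ± 0.0753, edgeR adjusted p = 3.76e-05), both above all untreated libraries.

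PSMD11 had the lowest value with STA9090+PIK75, at 90.5, 88.9 and 96.4 CPM (log2 fold change -0.52 ± 0.0836, edgeR adjusted p = 5.31e-05). PSMA1, at 25.8, 21.4 and 22.3 CPM (-0.44 ± 0.1, edgeR adjusted p = 0.00165), and PSME1, at 53.1, 46.9 and 56.2 CPM (-0.35 ± 0.0831, edgeR adjusted p = 0.00226), also fell and lay below all untreated libraries. PSMA7, PSMB2 and PSMC2 were called lower with log2 fold changes of -0.28, -0.21 and -0.24 (edgeR adjusted p 0.0285, 0.0218 and 0.0475), and each lost the call in several fits. PSMA7 was not called without untreated library 2 (0.186) or STA9090+PIK75 library 1, 2 or 3 (0.0645, 0.0828 and 0.0501), and PSMB2 not without untreated library 2 (0.123) or STA9090+PIK75 library 2 or 3 (0.0806 and 0.0559). PSMC2 was not called by DESeq2 (0.0619), or without untreated library 1 or 2 (0.165 and 0.0656) or STA9090+PIK75 library 1 or 2 (0.157 and 0.148). Without STA9090+PIK75 library 1 the count of genes called was 10 in place of 16.

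STA9090+PIK75 against PIK75 showed 14 of 48 genes higher and 0 lower, while 11.3% of all tested genes were higher and 25.3% were called in all; at an unadjusted p under 0.05, 21 were higher and 1 lower, and DESeq2 called 13 higher and 0 lower. In 22 of 48 genes the groups did not overlap, against 40% of all tested genes. The beta ring held 5 of the 14, among them PSMB7 at 140, 136 and 127 CPM against 93.2, 94.5 and 88.4 CPM with PIK75 (log2 fold change 0.54 ± 0.0811, edgeR adjusted p = 5.19e-05). PSMD5 had the smallest adjusted p of the 14 (0.52 ± 0.0756, edgeR, 4.25e-05). Without STA9090+PIK75 library 1 the count was 9.

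STA9090+PIK75 against STA9090 showed 16 of 48 genes lower and 2 higher (PSMB3 and PSMG4), while 19.8% of all tested genes were lower, 17.7% higher and 37.5% called in all. In 22 of 48 genes the groups did not overlap, against 45.5% of all tested genes. PSMD11 had the smallest adjusted p among the lower ones (log2 fold change -0.58 ± 0.0836, edgeR, 1.77e-05). PSMG4 was at 13.7, 16.3 and 18.4 CPM against 11.5 to 12.1 CPM with STA9090 (0.46 ± 0.114, edgeR adjusted p = 0.00324). PSMB3 was at 0.33 and was not called without STA9090 library 1 or 2 or STA9090+PIK75 library 1 or 2 (edgeR adjusted p 0.118, 0.0505, 0.0577 and 0.0657). The count of 18 fell to 10 without STA9090 library 2 and to 11 without STA9090+PIK75 library 1, 2 or 3.

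The interaction of STA9090 with PIK75 was called above 0 in 2 of 48 genes, PSMB7 (0.38 ± 0.114, edgeR adjusted p = 0.0402) and PSMC3 (0.34 ± 0.103, edgeR adjusted p = 0.0414), while 3.54% of all tested genes were called above 0, 5.73% below 0 and 9.27% in all. Both genes were lower with PIK75 alone. With STA9090+PIK75, PSMB7 was at 140, 136 and 127 CPM, within the untreated range of 119 to 145 CPM. PSMC3 was then at 70.9, 69.4 and 72.7 CPM, below all untreated libraries (80.1, 85.1 and 73.3 CPM), and was not called against untreated cells. In a fit of the 4 groups alone neither was called (edgeR adjusted p 0.0878 for PSMB7 and 0.0802 for PSMC3). Of the 12 fits with 1 library left out, PSMB7 and PSMC3 each lost the call in 9, and the count of called genes was 0 to 3; it was 0 without untreated library 1, STA9090 library 2, PIK75 library 1 or 2, or STA9090+PIK75 library 1 or 2, and 1 without STA9090 library 1 or STA9090+PIK75 library 3. The 2 genes called without untreated library 2, and the 1 without STA9090 library 1, had an interaction below 0 and were not PSMB7 or PSMC3.

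The 2 PI3K inhibitors were compared at the same stated dose and time. With BGT226, 30 of 48 genes were lower than with PIK75 and 0 higher (0 also at an unadjusted p under 0.05 and by DESeq2, which called 28 lower), while 16.5% of all tested genes were lower and 32% were called in all. In 38 of 48 genes the inhibitors did not overlap, against 47.3% of all tested genes. The median log2 fold change was -0.33, against 0 over all tested genes. PSME2 differed most, at 38.6, 37.1 and 38.2 CPM with BGT226 against 64.9, 70.5 and 75.5 CPM with PIK75 (-0.89 ± 0.0892, edgeR adjusted p = 2.57e-07). PSMB3 followed, at 31.8, 35.4 and 35.8 CPM against 55.4, 60.0 and 63.9 CPM (-0.79 ± 0.116, edgeR adjusted p = 2.76e-05). PSMD14, the deubiquitinase of the lid, was at 19.3, 21.7 and 21.7 CPM against 33.8, 43.8 and 28.2 CPM (-0.75 ± 0.118, edgeR adjusted p = 5.91e-05). In all 3 genes the libraries of the inhibitors did not overlap.

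Other members differed less between the inhibitors. PSMD12, a lid subunit, was at a log2 difference of -0.02 ± 0.116 (edgeR adjusted p = 0.907), and PSMG2, the partner of PSMG1, at 0.01 ± 0.0978 (edgeR adjusted p = 0.946). PSMB10 was called lower (-0.62 ± 0.217, edgeR adjusted p = 0.0342) on counts as low as 23, and DESeq2 did not call it (adjusted p = 0.0807). PSMB10 was also not called by edgeR without PIK75 library 3 (-0.44, adjusted p = 0.174), BGT226 library 2 (adjusted p = 0.127) or BGT226 library 3 (adjusted p = 0.0927).

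Between the combinations the difference was wider. With STA9090+BGT226, 42 of 48 genes were lower than with STA9090+PIK75 and 1 was higher, while 20.9% of all tested genes were lower and 22.4% higher. In 43 of 48 genes the groups did not overlap, against 54% of all tested genes. The median log2 fold change was -0.55, against 0.02 over all tested genes. PSMB6 was at 24.8, 25.7 and 24.2 CPM against 60.3, 61.8 and 60.8 CPM (-1.29 ± 0.107, edgeR adjusted p = 8.22e-09). PSMB3 was at 30.9, 29.9 and 35.2 CPM against 78.1, 78.5 and 76.3 CPM (-1.27 ± 0.116, edgeR adjusted p = 3.2e-08). PSMD14 and POMP both had a log2 fold change of -1.02 (SE 0.116 and 0.118, edgeR adjusted p 6.16e-07 and 7.72e-07).

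PSMG4 was higher with STA9090+BGT226 by 0.29 ± 0.107 (edgeR adjusted p = 0.0342), but DESeq2 did not call it (adjusted p = 0.088), nor did edgeR without STA9090+PIK75 library 1 (0.19, adjusted p = 0.187) or 2 (adjusted p = 0.0715), or without STA9090+BGT226 library 1, 2 or 3 (adjusted p 0.102, 0.0514 and 0.0704). PSMD4, a ubiquitin receptor, and PSME1 did not show the difference, at 0.01 ± 0.0876 and 0.06 ± 0.0836 (edgeR adjusted p 0.964 and 0.615). Both genes had fallen to similar levels in the combinations: PSMD4 was at -0.43 with STA9090+PIK75 and -0.42 with STA9090+BGT226 against untreated cells, and PSME1 at -0.35 and -0.29. Without untreated library 2 the value of PSME1 with STA9090+BGT226 was -0.19 and was not called (edgeR adjusted p = 0.0698).

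**Figure D4:**
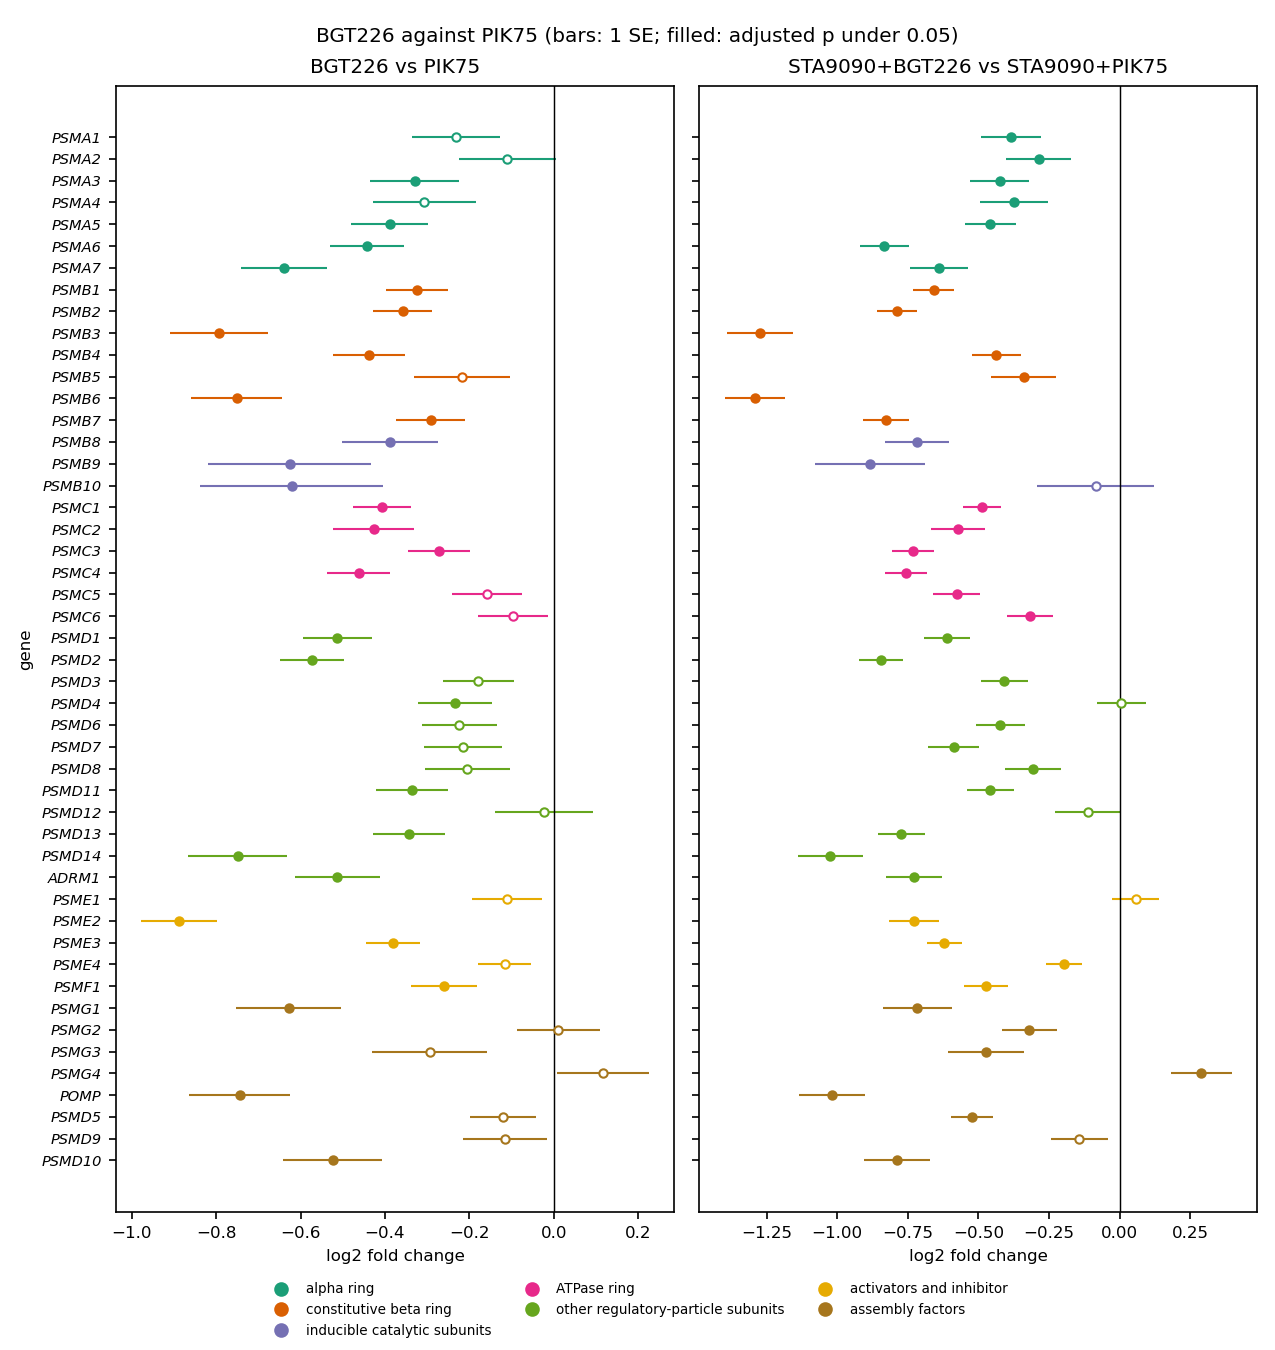
Log2 fold change of the 48 genes for BGT226 against PIK75 (left) and for STA9090+BGT226 against STA9090+PIK75 (right); points are fitted values coloured by role, bars are 1 SE, and filled points have an edgeR adjusted p under 0.05. Most points lie left of 0 in both panels, PSME2 is lowest on the left at -0.89, PSMB6 is lowest on the right at -1.29, and the horizontal axes differ.

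The balance of inducible to constitutive catalytic subunits was given as a log2 ratio of counts within a library, with an exact two-sided permutation test for each of 15 comparisons with untreated cells. With 3 libraries against 3 the smallest p this test can give is 0.1, and the smallest adjusted p here was 0.25, so 0 of 15 could pass. PSMB8/PSMB5 was -1.48, -1.50 and -1.28 in untreated cells, -1.01, -0.98 and -1.01 with PIK75, and -0.67, -0.97 and -0.94 with STA9090+PIK75, both above the untreated range (mean differences 0.42 and 0.56, exact permutation p = 0.1 for each). PSMB10/PSMB7 was -5.82, -5.50 and -5.58 in untreated cells and above that range in 4 treatments. The mean differences were 0.90 with PIK75, 0.58 with BGT226, 0.34 with STA9090+PIK75 and 1.07 with STA9090+BGT226 (exact permutation p = 0.1 for each). In untreated cells and these treatments, in that order, mean PSMB7 was at 130, 92.1, 75.2, 134 and 75.6 CPM. Mean PSMB10 was at 2.61, 3.46, 2.26, 3.4 and 3.2 CPM and was not called in these treatments. PSMB9/PSMB6 overlapped the untreated range in every treatment, with differences from -0.16 with STA9090+PIK75 to 0.31 with BGT226; with 1 library left out these ran from -0.32 to -0.05 and from 0.16 to 0.43. In AC040162.1, a gene that shares exon sequence with PSMB10 on the same strand, the counts came to 65.3% of those of PSMB10, so how reads were divided between them is uncertain.

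**Figure D5:**
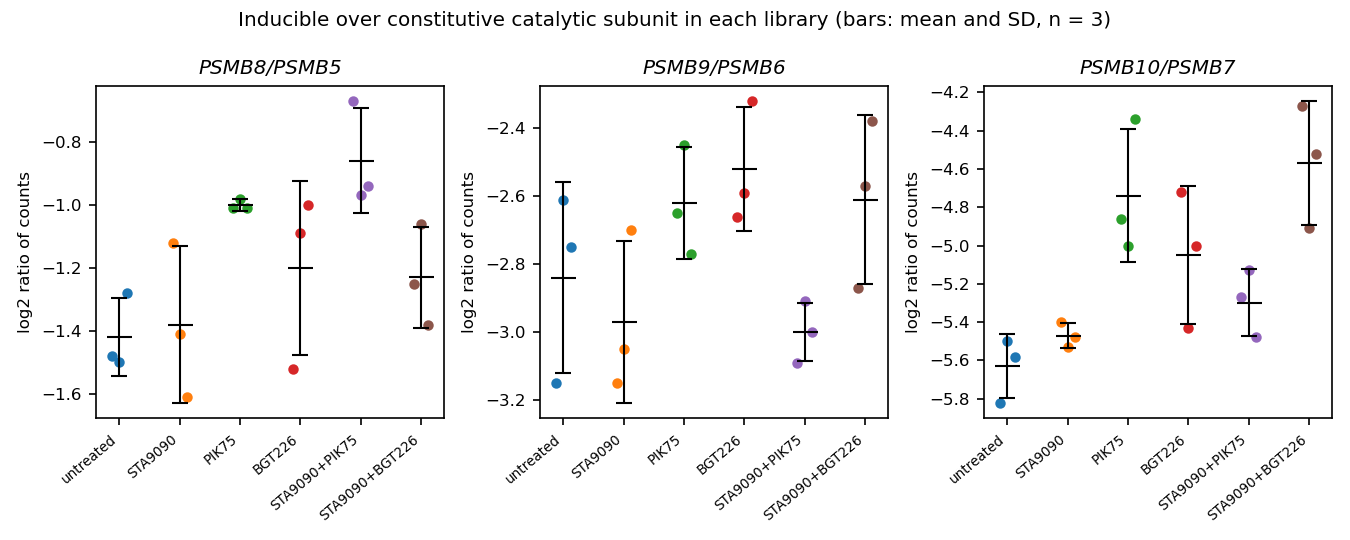
Log2 ratio of counts of an inducible over a constitutive catalytic subunit in each library (vertical axes differ; points: libraries, bars: mean and SD, n = 3, by group). The PIK75 and STA9090+PIK75 points of PSMB8/PSMB5 lie above the untreated ones, as do those of 4 treatments for PSMB10/PSMB7, while PSMB9/PSMB6 overlaps throughout.

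Genes around the proteasome were read from lists of related genes. In the list of the NFE2L1 route, 10 genes, NFE2L1 itself was at 144, 133 and 145 CPM in untreated cells and at 142, 141 and 150 CPM with BGT226, which overlap (log2 fold change 0.04 ± 0.0722, edgeR adjusted p = 0.718). NFE2L1 was lower with PIK75, at 114, 92.9 and 104 CPM (-0.44 ± 0.0728, edgeR adjusted p = 0.000233), and with STA9090+PIK75, at 97.9, 95.4 and 96.0 CPM (-0.54 ± 0.073, edgeR adjusted p = 6.97e-06). With STA9090 it was at -0.30 (edgeR adjusted p = 0.0296), a call lost in a fit of the 2 groups alone (adjusted p = 0.19) and without untreated library 1 or 3 or STA9090 library 1 or 2 (adjusted p 0.0727, 0.116, 0.094 and 0.0536). DDI2, the protease that activates NFE2L1, was at 29.8 to 38.6 CPM in untreated cells and 32.8 to 36.3 CPM with BGT226, with a log2 fold change of -0.01, and was called in 0 of the 5 treatments. NGLY1, the enzyme that removes its sugars, was at -0.14 with BGT226 and was not called (edgeR adjusted p = 0.478). NGLY1 was called lower with PIK75 and with STA9090+PIK75, at means of 6.64 and 6.59 CPM against 8.9 CPM in untreated cells. With PIK75 the call was lost in several fits, among them DESeq2 (adjusted p = 0.0822). With STA9090+PIK75 it was lost without untreated library 3 or STA9090+PIK75 library 2 (edgeR adjusted p 0.0793 and 0.066).

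With BGT226, 1 gene of that list of 10 rose and 1 fell, while 12.8% of all tested genes rose and 15.7% fell. MAFF, a small partner of such factors, was at 1.89, 1.49 and 2.28 CPM in untreated cells and at 5.72, 4.62 and 5.29 CPM with BGT226 (log2 fold change 1.47 ± 0.219, edgeR adjusted p = 4.45e-05). VCP, the ATPase that extracts ubiquitinated proteins for degradation, was at 559, 670 and 529 CPM in untreated cells and at 389, 397 and 388 CPM with BGT226 (-0.58 ± 0.1, edgeR adjusted p = 0.000196). Neither overlapped between the groups.

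Of 14 ubiquitin and shuttle factors 7 fell and 0 rose with BGT226 (against 15.7% of all tested genes that fell), with a median log2 fold change of -0.31. NPLOC4 and UFD1, the cofactors of VCP, were at -0.70 ± 0.075 and -0.57 ± 0.0767, and RAD23B, which shuttles substrates to the proteasome, at -0.33 ± 0.0709 (edgeR adjusted p 1.08e-06, 1.44e-05 and 0.00154). Of 14 tested proteasome-bound factors 4 fell and 1 rose: USP14, a deubiquitinase on the particle, fell from 58.8, 63.6 and 62.0 CPM to 43.7, 43.1 and 44.0 CPM (-0.50 ± 0.0754, edgeR adjusted p = 5.79e-05). SEM1, a small lid subunit, was at 9.76, 5.14 and 10.4 CPM in untreated cells and at 4.93, 3.59 and 4.78 CPM with BGT226 (-0.91 ± 0.227, edgeR adjusted p = 0.0049). TXNL1, a thioredoxin-like protein bound to the regulatory particle, fell from 40.4, 38 and 37.1 CPM to 32.1, 32.5 and 30.3 CPM (-0.29 ± 0.0767, edgeR adjusted p = 0.00785), but was not called without BGT226 library 3 (adjusted p = 0.0507). ZFAND2A, a stress-induced factor, rose from 2.72, 2.57 and 3.47 CPM to 4.83, 4.78 and 5.33 CPM (0.79 ± 0.216, edgeR adjusted p = 0.00917).

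Of 8 genes of antigen processing, which uses peptides made by the proteasome, 1 fell and 1 rose with BGT226, against 15.7% and 12.8% of all tested genes. TAP1, a peptide transporter, was at 13.8, 14.7 and 12.5 CPM in untreated cells and at 10.6, 10.8 and 9.69 CPM with BGT226 (log2 fold change -0.41 ± 0.134, edgeR adjusted p = 0.0252), and ERAP1, which trims peptides, was at 0.38 ± 0.132 (edgeR adjusted p = 0.0342). TAP1 lost its call without untreated library 1 or 2 or BGT226 library 3 (edgeR adjusted p 0.0568, 0.102 and 0.116). ERAP1 lost it with DESeq2 (adjusted p = 0.0514) and, in edgeR, without untreated library 2 or 3 or BGT226 library 2 or 3 (0.126, 0.0804, 0.0948 and 0.123).

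In the other treatments the same lists held these counts. With PIK75, 3 of 10 genes of the NFE2L1 route, 4 of 14 ubiquitin and shuttle factors, 3 of 14 proteasome-bound factors and 2 of 8 antigen processing genes fell and 0 rose, while 10.2% of all tested genes fell. With STA9090+PIK75, 5, 4, 4 and 5 of these genes fell and 0, 3, 3 and 1 rose, against 20.1% and 18.3% of all tested genes. With STA9090+BGT226, 2, 8, 5 and 3 fell and 1, 0, 1 and 1 rose, against 20.4% and 19.4% of all tested genes. With STA9090, 2 genes of the NFE2L1 route fell and 1 ubiquitin or shuttle factor rose, against 1.68% and 1.16% of all tested genes.

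The 48 genes lie on 18 chromosomes, and PSMB8 lies beside PSMB9 on chromosome 6, as PSME1 lies near PSME2 on chromosome 14. In 18 of the 48 genes GENCODE 29 places exons of another gene on the same bases, and because the counting strand is not given in the sources used here, their values are less certain. NRDE2, antisense to PSMC1 over 3654 exon bases, had counts of 52.6% of those of PSMC1, and FTSJ3 had 53.0% of those of PSMC5. PSMC1 also has 13 processed copies, with counts of 18.1% of its own. Of the genes named above, PSMD11 (0.243%), ADRM1 (0.0678%) and PSMA1 (6.01%) had little in their overlapping neighbours. PSMD13 had 20.8% in SIRT3, and PSME2 had 50.3% in RNF31 over 21 shared bases. PSMG3 had 107% in PSMG3-AS1 and PSMG2 41.7% in CEP76. PSME1 had 33.2% in EMC9 over 3 shared bases and PSMA2 22.4% in MRPL32 over 24, both on the opposite strand. On the same strand, PSMD9 had 22.7% in WDR66, PSMB9 11.9% in PSMB8-AS1 and PSMA2 8.19% in AC010132.3 over 781 bases. The overlap of PSMA1, with AC018523.2 over 801 bases, was also on the same strand. No overlap was found for PSMB2, PSMB3, PSMB6, PSMC2, PSMC3, PSMC6, PSME3, POMP, PSMG1, PSMG4 and PSMD5.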

How the data were processed

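Expected counts of 18 libraries were deposited by the authors as 1 table; the RNA was stranded total RNA without ribosomal RNA, read as paired ends, per the labels. Tools in the submitters' processing notes are RSEM 1.3.1, STAR 2.7.0f, cutadapt 1.18 and bcl2fastq 2.20, with the build hg38. Annotation release, settings and counting strand were not given in the sources used here. Such estimates divide reads shared by overlapping or near-identical genes.

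Counts were rounded, filtered with filterByExpr (minimum count 10, minimum total 15) and scaled by TMM in edgeR 4.0.16 (R 4.3.3). All 18 libraries entered 1 quasi-likelihood fit with 6 group means and no covariate (biological coefficient of variation 10.6%). Benjamini-Hochberg adjustment covered the 15787 genes tested (threshold 0.05). The fold changes have a prior count of 0.125, and SE was taken as the size of the fitted value over the root of its F statistic. Ratios of catalytic subunits used a prior of 0.5 counts. DESeq2 1.42.0, RLE size factors, no filter, a fit of the compared groups, the replicate number as a block, a ratio prior of 2 counts and each library left out were alternatives. The fit was tested on simulated data.

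The members, gene lists, tests and alternatives were chosen with earlier results of these data known. The genes named were, in each role, the 2 with the largest mean absolute log2 fold change over the 5 comparisons with untreated cells, those called against the direction of their role, and the ends of a range. Of related lists, up to 4 called genes with the smallest adjusted p under BGT226 were named, and NFE2L1, DDI2 and NGLY1 in any case. One gene that this rule names is not reported here. PSMB7, PSMB8, PSMD14 and PSME1 appear beyond those rules as catalytic subunits, ends of a range or partners, and were chosen after their values were seen. PSMD10, PSMG2 and PSMG3 were also named for calls they lost, PSMC5 for an unadjusted p and PSMD9 as a gene not called. PSMC1 was named for its antisense gene and processed copies. All 48 gene IDs were found in GENCODE 29 when the version was ignored, 13 with the same version.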

Additional observations from a re-analysis of the deposited data

Results flagged for a closer look

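By the interaction term of the edgeR fit, the effect of STA9090 differed between cells without and with PIK75 in 2 of 48 proteasome genes. Over all tested genes 9.27% were called: 3.54% of all tested genes above 0 and 5.73% below 0. Both members were called above 0, so their share of 4.17% was near the 3.54% of all tested genes. For PSMB7, the trypsin-like subunit, the log2 difference between the effects was 0.38 (edgeR adjusted p = 0.0402): STA9090 changed it by 0.16 in cells without PIK75 and by 0.54 in cells with PIK75. For PSMC3, an ATPase of the regulatory particle, it was 0.34 (edgeR adjusted p = 0.0414), from -0.05 without PIK75 to 0.29 with PIK75. PSMB7 and PSMC3 each lost the call in 9 of the 12 fits with 1 library left out, with adjusted p up to 0.0989 and 0.105. Neither was called when only the compared groups were fitted (edgeR adjusted p 0.0878 and 0.0802) or without the filter on low counts (0.0609 and 0.107).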

How the results depend on the processing

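None of the 272 called log2 fold changes of the 48 genes changed sign in any alternative that was run, and 62 lost their call in at least 1. Calls were lost in 2 values with RLE size factors, 9 with the replicate number as a block, 10 with DESeq2, 14 without the filter on low counts, 24 when only the compared groups were fitted, and 208 over all fits with 1 library left out, in which 1436 were kept.

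When only the compared groups were fitted, the count of genes called was 0 for STA9090 against untreated, 10 for PIK75 against untreated, 1 for STA9090+BGT226 against BGT226 and 0 for the interaction of STA9090 with PIK75; the last was also 0 without the filter on low counts and 1 with the replicate block. With 1 library left out the counts ran from 0 to 3 for STA9090, 12 to 20 for PIK75, 37 to 41 for BGT226, 10 to 15 for STA9090+PIK75 and 41 to 44 for STA9090+BGT226, each against untreated. They ran from 9 to 13 for STA9090+PIK75 against PIK75, 10 to 16 against STA9090, 44 to 45 for STA9090+BGT226 against STA9090, 25 to 32 for BGT226 against PIK75, 37 to 42 between the combinations, and 0 to 3 for the interaction of STA9090 with PIK75. The causes were not tested, except that these fits hold fewer libraries.

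The difference in PSMB8/PSMB5 between STA9090 and untreated cells, 0.04, was 0.00 without untreated library 2 and -0.09 without STA9090 library 1, a range of -0.09 to 0.15 over the libraries left out.

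The replicate numbers did not pair the samples: deviations of libraries with the same number correlated from -0.149 to 0.123, 1 of 45 pairs was over 0.1, and 2 of 18 libraries correlated best with their own number. The block moved no count of calls by over 1.5 times other than that of the interaction of STA9090 with PIK75. Of the 48 genes PSMB10 had the lowest count, with 23 to 39 counts as the lowest of each group.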
